A study of Caenorhabditis elegans with 4 samples.

Results

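The genes described here are the snoRNA genes of Caenorhabditis elegans that stand outside protein-coding genes. They were taken from the WBcel235 Ensembl gene models as every gene of the biotype snoRNA that did not lie wholly inside a protein-coding gene on the same strand. This gave 163 of the 346 annotated snoRNA genes, and the other 183 lay inside a same-strand protein-coding gene. Of the 163 genes, 124 shared no base with a protein-coding gene on either strand and 39 did. The annotated RNAs were 62 to 344 bases long, with a median of 134 bases. The wider gene set they were read against held 29399 genes, all annotated genes except pseudogenes, piRNA genes and the mitochondrial genes.

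The question the data address is where the zinc finger protein SEA-2 sits on chromatin in whole L3 larvae, measured by chromatin immunoprecipitation with sequencing (ChIP-seq). There were 4 biological replicates of 1 group and no second condition. All replicates came from mixed-sex L3 larvae of strain OP193, which carries the mutation unc-119(ed3) and 1 integrated transgene, wgIs193, made of sea-2 tagged with TY1, EGFP and FLAG together with a rescuing unc-119 copy. Replicates 1 and 2 have a labelled size range of 150 to 350 bp. Replicates 3 and 4 are labelled as sonicated with a microtip and come from another source of worms. The whole animal was used, so the tissues in which a peak arose cannot be told apart. Nothing in the data shows whether a gene near a summit is regulated by SEA-2.

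Small nucleolar RNAs guide chemical modification of other RNAs, mainly ribosomal RNA and spliceosomal snRNAs. Box C/D snoRNAs pair with their target and direct 2′-O-methylation by fibrillarin, and box H/ACA snoRNAs direct the conversion of uridine to pseudouridine by dyskerin. Many animal snoRNAs are cut out of the introns of host genes, while others, among them many in C. elegans, have a promoter of their own. In C. elegans such independent small RNA genes can carry a proximal sequence element, bound by a complex that holds SNPC-4, or tRNA-like boxes that recruit the RNA polymerase III machinery. SEA-2 is known as an autosomal signal in the count of X chromosomes against autosomes that sets sex, and as a factor in larval developmental timing.

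Each peak of the deposited lists has a summit, the position of its highest signal, and a signal value, given by the authors' caller on a scale that the files do not state. A gene was counted as having a summit when 1 fell from 1000 bp upstream to 200 bp downstream of its annotated start, here called the promoter window. The final list holds 312 peaks and the pooled list 3912. The final peaks are the 312 strongest of the pooled list, so the final and pooled lists and the replicates behind them are not independent of each other. The lists of the single replicates hold 23684 peaks in replicate 1 and 30000 in each of replicates 2, 3 and 4, and they include weak background regions. They were compared through the 312 peaks with the highest signal value in each, called the strongest peaks below. Read numbers are not given, so the depth behind a list is unknown, and the intervals given for shares are exact 95% intervals that cover counting error only.

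The sequences around the final summits show what SEA-2 was found on near these genes. Of the 6 genes with a final summit, the summit windows of ZK20.9, C01B10.48, M7.15 and C36E8.11 are printed here. Sequences are given on the strand of the snoRNA, 5′ to 3′, on ce11. For W03C9.9 the RNA and the bases just upstream of it are printed further below, without its summit. Each line holds 101 bases, the summit with 50 bases to each side, and capitals mark the word GAGAGA, which was searched on both strands.
ZK20.9, chrII:11635150-11635250, plus strand: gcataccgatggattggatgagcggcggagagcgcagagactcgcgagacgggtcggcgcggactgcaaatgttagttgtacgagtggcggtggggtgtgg
C01B10.48, chrIV:6646082-6646182, minus strand: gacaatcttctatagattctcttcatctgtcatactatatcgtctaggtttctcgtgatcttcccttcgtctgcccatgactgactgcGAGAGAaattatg
M7.15, chrIV:11083065-11083165, plus strand: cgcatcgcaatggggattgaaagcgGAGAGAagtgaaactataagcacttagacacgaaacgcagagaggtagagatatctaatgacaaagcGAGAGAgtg
C36E8.11, chrIII:4004295-4004395, plus strand: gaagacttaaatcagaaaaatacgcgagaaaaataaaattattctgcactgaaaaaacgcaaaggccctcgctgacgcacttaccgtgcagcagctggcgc
The ZK20.9 summit window was 62.4% G or C and the 3 others printed were between 41.6% and 45.5%. The W03C9.9 summit window, not printed, was 54.5% G or C and held no GAGAGA. The M7.15 window held GAGAGA at 2 places and the C01B10.48 window at 1, and neither the ZK20.9 nor the C36E8.11 window held it.

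The RNAs of the 2 genes with the strongest final summits follow, since they differ in what can be recognised in the sequence. Capitals mark the C box TGATGA within the first 20 bases and the D box CTGA within the last 20, the paired elements at the ends of box C/D snoRNAs.
W03C9.9, chrII:11960898-11960959, plus strand: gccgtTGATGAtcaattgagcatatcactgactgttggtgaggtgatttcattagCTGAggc
ZK20.9, chrII:11635225-11635327, plus strand: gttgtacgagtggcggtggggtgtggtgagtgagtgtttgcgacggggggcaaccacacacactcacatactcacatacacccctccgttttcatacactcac
W03C9.9 has both boxes and is 62 bases long. ZK20.9 has neither box, and the ACA near its 3′ end starts farther from the end than the searched positions. By the same search 8 of the 163 genes had the C and D boxes, 20 had an ACA starting 5 to 7 bases before the 3′ end as in box H/ACA snoRNAs, and 135 had neither. The search used exact letters, so a gene in the last set can still encode a guide RNA of either kind.

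Of the 163 promoters from 250 bases before to 50 bases after the start, 13 (7.98%) held GGTTCNANNC on the strand of the gene, the letters of the B box that tRNA genes carry. The same word stood in 8 of the 183 snoRNA promoters inside protein-coding genes (4.37%), in 15 of 612 tRNA promoters (2.45%) and in 316 of all 29399 promoters (1.07%). The search ended 50 bases after the start, so a B box farther inside a tRNA gene was not counted. In the 13 genes its first base lay between −32 and −9 from the start, with a median of −15, where negative positions are upstream. Shown are the 90 bases upstream of the start of 3 genes with a pooled summit (W03C9.9, Y75B12B.12 and F12F6.11) and of 2 without one (C53B7.8 and Y59E1B.14), with the word in capitals.
W03C9.9, chrII:11960808-11960897, plus strand: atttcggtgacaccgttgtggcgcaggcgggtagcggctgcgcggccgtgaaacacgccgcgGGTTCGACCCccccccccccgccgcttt
Y75B12B.12, chrV:15191094-15191183, minus strand: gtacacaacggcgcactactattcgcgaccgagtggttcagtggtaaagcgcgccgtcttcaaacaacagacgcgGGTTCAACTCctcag
F12F6.11, chrIV:11549865-11549954, minus strand: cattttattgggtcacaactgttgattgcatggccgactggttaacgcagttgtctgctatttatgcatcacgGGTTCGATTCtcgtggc
C53B7.8, chrX:6867848-6867937, plus strand: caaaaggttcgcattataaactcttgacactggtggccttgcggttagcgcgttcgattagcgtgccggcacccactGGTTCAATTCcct
Y59E1B.14, chrX:1891419-1891508, plus strand: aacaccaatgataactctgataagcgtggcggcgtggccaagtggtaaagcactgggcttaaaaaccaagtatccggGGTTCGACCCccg
W03C9.9 also had a final summit, 106 bp upstream of its start. In these 5 genes the first base of the word lies at −28, −15, −17, −13 and −13 from the start, in the order shown, so the word sits close to the start whether or not a pooled summit was present.

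A further 15 promoters (9.20%) held GCGGAACC on the strand of the gene. This word stood in 30 of 129 snRNA promoters (23.3%), in 5 of the 183 promoters of snoRNA genes inside protein-coding genes (2.73%) and in 102 of all promoters (0.347%). Its first base lay at a median of −64 from the start in the 15 snoRNA genes, with extremes of −89 and 2, and at a median of −62 in the snRNA genes. The 90 bases upstream of 5 of these genes are shown with the word in capitals. Y53F4B.47 had a pooled summit and the other 4 genes had none.
Y53F4B.47, chrII:15025894-15025983, minus strand: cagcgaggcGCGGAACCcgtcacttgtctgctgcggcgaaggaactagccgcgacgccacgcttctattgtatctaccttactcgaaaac
C05H8.3, chrIII:5653969-5654058, minus strand: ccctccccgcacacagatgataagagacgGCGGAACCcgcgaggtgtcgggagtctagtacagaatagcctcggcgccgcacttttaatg
K02F6.11, chrII:2556799-2556888, minus strand: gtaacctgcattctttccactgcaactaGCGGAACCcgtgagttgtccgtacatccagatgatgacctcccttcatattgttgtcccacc
T26A8.6, chrIV:8428740-8428829, minus strand: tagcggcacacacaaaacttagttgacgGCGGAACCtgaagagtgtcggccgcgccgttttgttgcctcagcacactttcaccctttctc
W03B1.17, chrIV:4347542-4347631, plus strand: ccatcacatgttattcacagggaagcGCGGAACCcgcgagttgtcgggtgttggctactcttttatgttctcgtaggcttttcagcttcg
No promoter held both words, and 135 of the 163 held neither. Both words were chosen after these promoters had been read, so the counts describe them and are not tests.

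SEA-2 summits lay in the promoter window of 6 of the 163 snoRNA genes in the final list, or 3.68% (exact 95% interval 1.36 to 7.84%), against 1.3% of all genes. In the pooled list the count was 46 of 163, or 28.2% (21.5 to 35.8%), against 9.86% of all genes. Each of the 46 genes had a pooled peak of its own as the nearest. These pooled peaks had signal values from 31.2 to 132, with a median of 37.9, beside a median of 35.0 over the pooled list. The final list took up 13.0% of the 46 peaks, counted as 6 genes, and 7.98% of all pooled peaks. The pooled list reaches down to −log10 q-values of 0.017, so weak background regions can be among these 46 peaks. Only 3 of the 163 genes kept a summit among pooled peaks with a −log10 q-value of at least 2, or 1.84%, against 0.959% of all genes, and these were ZK20.9, W03C9.9 and T02E1.9.

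The order of the small RNA classes depended on the list. In the final list a summit was present at 3.68% of these snoRNA genes, 4.92% of the snoRNA genes inside protein-coding genes, 3.76% of the tRNA genes, 3.07% of the microRNA genes and 2.33% of the snRNA genes, with exact intervals that overlapped (1.36 to 7.84% for these snoRNA genes). In the pooled list, where these snoRNA genes stood at 28.2%, a summit was present at 42 of 183 snoRNA genes inside protein-coding genes (23.0%), 112 of 612 tRNA genes (18.3%), 38 of 261 microRNA genes (14.6%) and 10 of 129 snRNA genes (7.75%). Protein-coding genes had one in 1847 of 19973 cases (9.25%). The exact interval of the 163 genes, 21.5 to 35.8%, overlapped that of the inside snoRNA genes, 17.1 to 29.7%, and narrowly that of the tRNA genes, 15.3 to 21.6%. The intervals of the microRNA genes, 10.5 to 19.4%, and the snRNA genes, 3.78 to 13.8%, lay below that of the 163 genes. Genes can share a peak, so these intervals are not those of independent genes.

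**Figure D1:**
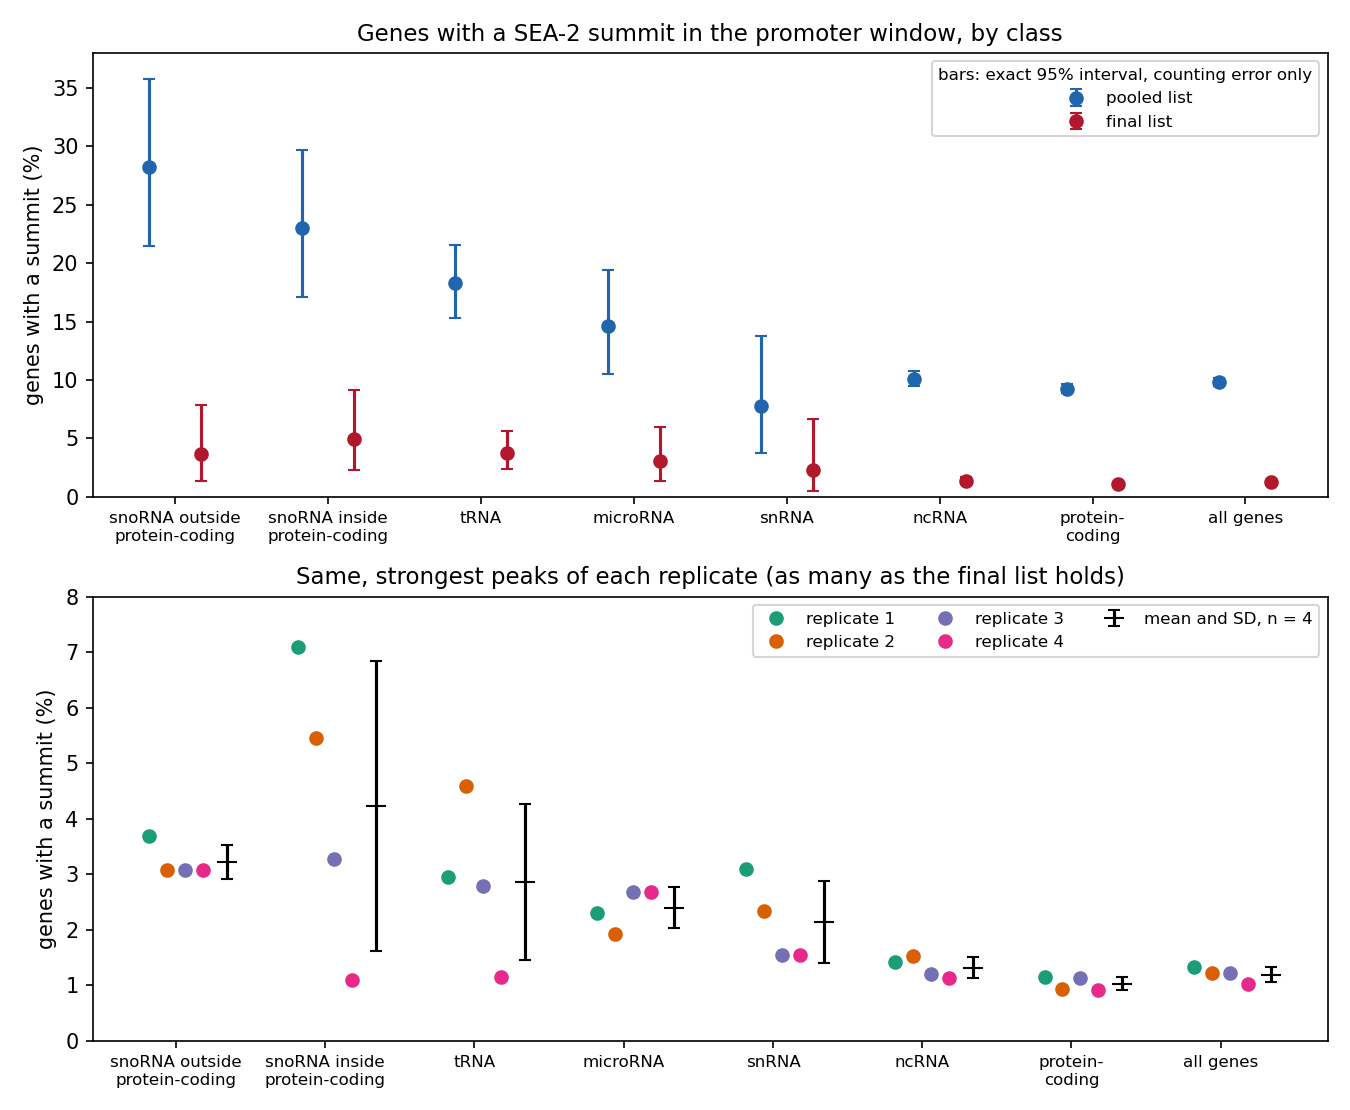
Percent of genes with a SEA-2 summit in the promoter window, by gene class (x axis): the upper panel gives the pooled and final lists with exact 95% intervals, the lower panel the strongest peaks of each replicate as points with the mean and SD (n = 4). The snoRNA genes outside protein-coding genes stand leftmost, at 28.2% in the pooled list and between 3.07 and 3.68% in the 4 replicates.

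In the single replicates, 6, 5, 5 and 5 of the 163 genes had a summit of the strongest peaks in replicates 1, 2, 3 and 4. The corresponding shares of all genes were 1.32%, 1.21%, 1.22% and 1.01%. The snoRNA genes thus had 3.22% ± 0.307 (SD, n = 4), against 1.18% ± 0.129 for all other genes. The difference was 2.37, 1.86, 1.86 and 2.07 percentage points in replicates 1 to 4, or 2.04 ± 0.241 on average. It was above 0 in 4 of 4 replicates, and the exact two-sided sign-flip permutation test gave p = 0.125, the smallest that 4 replicates allow. It was 2.12 points within replicates 1 and 2 and 1.96 points within replicates 3 and 4. With all peaks of each list counted, 79, 85, 89 and 76 of the 163 genes had a summit, a mean of 50.5% ± 3.59 (SD, n = 4). All genes then stood at 35.1%, 39.9%, 41.4% and 40.4% in replicates 1 to 4.

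The snoRNA genes inside protein-coding genes varied more among the replicates. The difference between the 163 genes and these was −3.42, −2.40, −0.211 and 1.97 points over the 4 replicates, with −1.01 ± 2.40 as its mean and SD (exact two-sided sign-flip permutation test, p = 0.375). The sign depended on the window: from 500 bp upstream to 100 bp downstream of the start the mean difference was 1.24 points (p = 0.125 in the same exact test), higher in the genes outside. With each summit given only to the gene with the nearest start it was 1.09 points. The 163 genes and the inside snoRNA genes were not separated by their share of strong summits in 4 replicates, which does not show that the shares are equal.

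The genes behind the replicate counts were partly different ones. In all, 14 of the 163 genes had a summit of the strongest peaks in at least 1 replicate, and all 14 also had a pooled summit. ZK20.9 had one in 4 of 4 replicates, C01B10.48 in replicates 1, 2 and 3, and W03C9.9 and C26C6.13 in replicates 1 and 2. The other 10 genes had one in a single replicate. At ZK20.9 the best-ranked summit lay at different places. It was 43 and 60 bp upstream in replicates 1 and 2, 139 bp downstream in replicate 3 and 818 bp upstream in replicate 4. Replicate 4 contributed ZK20.9 and 4 genes found in no other replicate at this depth, namely ZK265.10, T06C12.16, C46C2.8 and C18A3.12. Over all peaks, 30 of the 163 genes (18.4%) had a summit in 4 of 4 replicates, of which 23 also had a pooled summit, and 28 genes had none in any replicate. Counts over several replicates were not made for all genes, so those given here only describe the 163 genes.

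ZK20.9 (WBGene00220236, chromosome II, 11635225 to 11635327, plus strand) carried the strongest summit. Its pooled peak, from 11635030 to 11635369, had a signal value of 132 and rank 14 of 3912, with its summit 25 bp upstream of the start. The best-ranked peaks that overlapped it had ranks 5, 6, 50 and 1872 in replicates 1, 2, 3 and 4. Such a peak was thus among the strongest of replicates 1, 2 and 3 and far down the list of replicate 4. Their summits lay 43 and 60 bp upstream in replicates 1 and 2, 139 bp downstream in replicate 3 and 156 bp upstream in replicate 4. Replicates 1 and 2 also had weaker summits 157 and 139 bp downstream, at ranks 1633 and 21918. The only other summit of replicate 3 in the window lay 882 bp upstream, so replicate 3 listed none just upstream of the start. A second final summit stood 864 bp upstream, with a signal value of 113 and rank 27, near the start of the ncRNA gene ZK20.8 on the other strand. The main summit also lay in the promoter window of ZK20.8. The second peak ranked 33, 35, 1703 and 70 in replicates 1 to 4, so in replicate 4 it ranked above the peak at the ZK20.9 start. The nearest protein-coding start, that of din-1, was 1591 bp from the main summit. din-1 encodes a corepressor that partners the nuclear receptor DAF-12.

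W03C9.9 (WBGene00045127, chromosome II, 11960898 to 11960959, plus strand), the gene with both C and D boxes, had the summit that moved least between replicates among these 6 genes. Its pooled peak had a signal value of 81.0 and rank 104, and ranked 97, 117, 2285 and 2066 in replicates 1 to 4. The peak was strong in replicates 1 and 2 and outside the strongest peaks in replicates 3 and 4. Its summit nevertheless lay 100, 107, 105 and 111 bp upstream of the start in replicates 1 to 4. No other annotated gene had this summit in its window, and the nearest protein-coding start, W03C9.1, was 1336 bp away.

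T02E1.9 (WBGene00045156, 71 bases long), also with the B box letters upstream, had a pooled signal value of 72.0 and rank 167, with its summit 100 bp upstream. The peak ranked 313, 872, 238 and 2918 in replicates 1 to 4, so it was among the strongest peaks of replicate 3 and just outside them in replicate 1. Its summit lay 97, 37, 5 and 105 bp upstream in replicates 1 to 4. The protein-coding gene T02E1.2, which starts 420 bp from the summit on the other strand, also had the summit in its window.

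The other 3 final summits were also shared with protein-coding genes. C01B10.48 (WBGene00219791, chromosome IV, 6645512 to 6645749, minus strand) had a signal value of 64.3, rank 236, and ranks of 303, 83, 104 and 6044 in replicates 1 to 4. Its pooled summit was 383 bp upstream of the snoRNA and 180 bp from the start of hil-7, a linker histone gene, which was the nearer one. The best-ranked summit lay 426, 352, 241 and 493 bp upstream in replicates 1 to 4. M7.15 (WBGene00220032, chromosome IV, 11083147 to 11083243, plus strand) had a signal value of 63.0, rank 248, and ranks of 2177, 324, 83 and 9604. Its pooled summit was 32 bp upstream of the snoRNA and also lay in the windows of klc-1, a kinesin light chain gene, and let-70, an E2 ubiquitin-conjugating enzyme gene. In replicate 4 the peak of rank 9604 had its summit 313 bp upstream, and a summit 65 bp upstream ranked 12218. C36E8.11 (WBGene00219850, chromosome III, 4004435 to 4004617, plus strand) had a signal value of 62.9, rank 250, and ranks of 1008, 987, 215 and 9353. Its pooled summit was 90 bp upstream of the snoRNA and 231 bp from the start of tif-1A. This gene encodes an initiation factor of RNA polymerase I, the enzyme that makes ribosomal RNA. In replicate 4 the peak of rank 9353 had its summit 321 bp upstream, and a summit 86 bp upstream ranked 16497. In each of these 3 genes the peak was among the strongest of replicate 3 and ranked lowest in replicate 4.

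**Figure D2:**
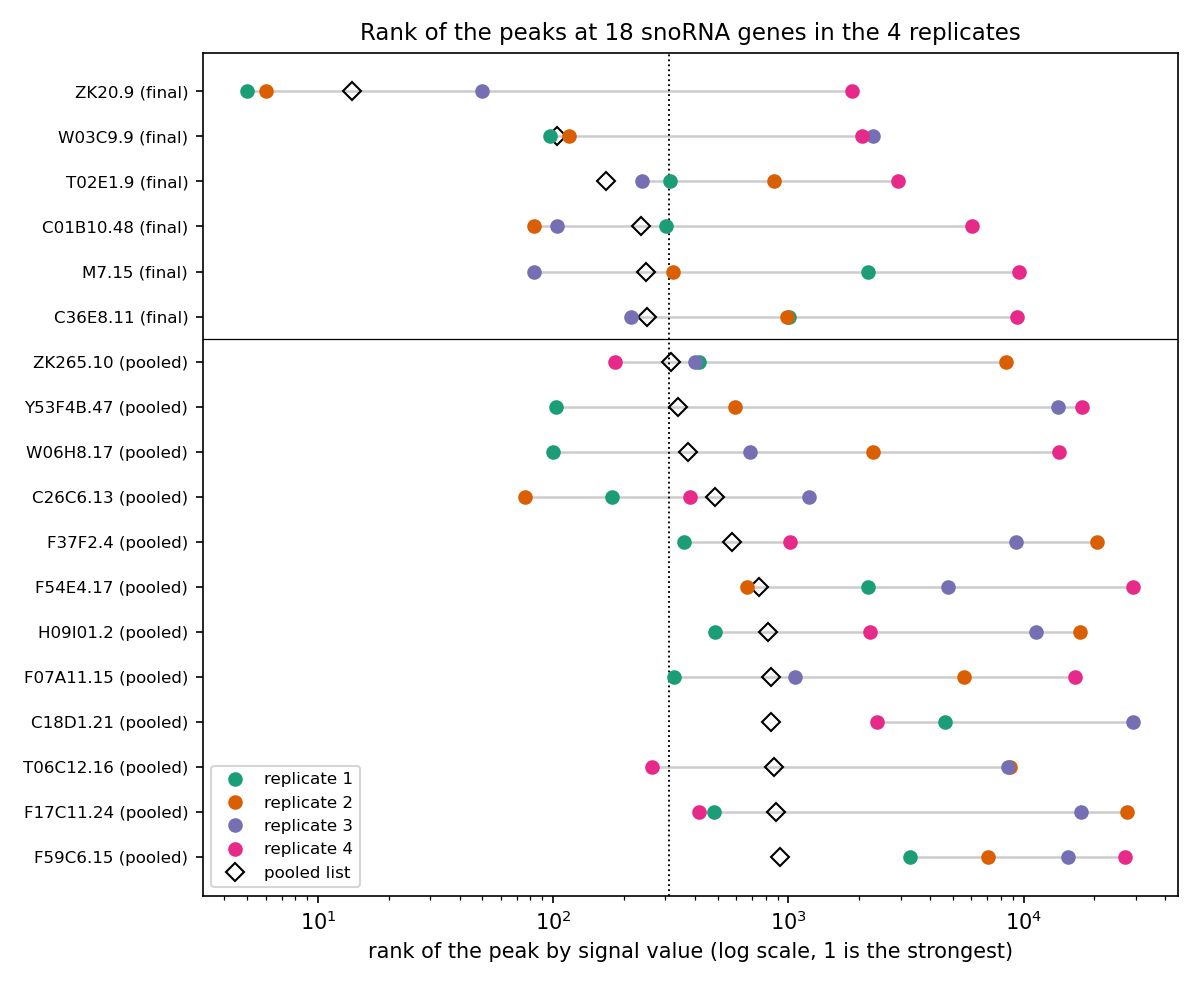
Rank by signal value (log x axis, 1 is the strongest) of the peaks at the 6 genes with a final summit and the 12 strongest with a pooled summit only, with a coloured point for each replicate and a diamond for the pooled list. Each replicate point is the best-ranked peak of that replicate that overlaps the gene's pooled peak, which need not be the one nearest the start. The dotted line marks rank 312. In replicate 4 the points of the 6 final genes lie to its right at ranks 1872 to 9604. The second peak of ZK20.9, at rank 70 in replicate 4, is not drawn.

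Among genes with a pooled but no final summit, ZK265.10 stood closest to the final list, with a signal value of 57.6 and rank 316, beside a lowest final value of 57.9. Its peak ranked 416, 8455, 400 and 183 in replicates 1 to 4, high in 3 replicates and low in replicate 2. Y53F4B.47 had a signal value of 56.4, rank 339, and ranks of 103, 594, 14045 and 17776, so replicates 1 and 2 carried it. Its summit was 136 bp past the start, beyond the end of the 80-base RNA, and cmtr-1, an mRNA cap methyltransferase gene, had the summit in its window too. W06H8.17, with an ACA near its end, had a signal value of 54.9 and ranks of 100, 2288, 690 and 14097. C26C6.13, also with an ACA, had a signal value of 50.3 and ranks of 178, 76, 1229 and 383. Its peak, 222 bp upstream of the start and 3474 bp from the nearest protein-coding start, ranked no lower than 1229 in any replicate.

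The 8 weaker peaks named by the same rule had signal values between 41.7 and 47.9 and pooled ranks between 574 and 919. F37F2.4, H09I01.2 and F17C11.24 ranked 361, 488 and 485 in replicate 1 and 20564, 17416 and 27559 in replicate 2. F54E4.17 had its summit 916 bp upstream, next to the ncRNA gene F54E4.14, and ranked 2176, 670, 4777 and 29248 in replicates 1 to 4. F07A11.15 had its summit 47 bp from the start of din-1 and 100 bp past its own start. C18D1.21 and T06C12.16 had summits in no other gene's window, 15 and 105 bp past the start. Neither was covered in every replicate, since C18D1.21 had no overlapping peak in replicate 2 and T06C12.16 none in replicate 1. F59C6.15, with GCGGAACC upstream, ranked between 3290 and 27118 in the replicates.

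Over all 46 genes, the pooled peak was overlapped by at least 1 bp by a peak of replicates 1, 2, 3 and 4 in 43, 31, 41 and 34 cases. It was among the strongest 312 peaks of those replicates in 6, 5, 5 and 4 cases. The best overlapping peaks had median ranks of 2003, 2288, 4421 and 4438 in replicates 1 to 4. A peak was present in 4 of 4 replicates for 20 of the 46, in 3 replicates for 17 and in 2 replicates for 9. A peak in a replicate is not independent support for the pooled one, which was called from the same 4 alignments.

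The median distance of the nearest pooled summit was 83 bp upstream (−83 bp), with quartiles of −214 and −26 bp. Of the 46 summits, 24 (52.2%) lay within 200 bp upstream of the start, a stretch that makes up 16.7% of the window. In all 36 (78.3%) were upstream and 10 within 200 bp past the start, a split that the window largely sets, since 83.3% of its positions are upstream. The 4 summits over 500 bp upstream were those of F54E4.17, T27A8.8, C34E11.20 and F37A8.7. In the replicates, the median distance over the strongest 3912 peaks was −93, −85, −105 and −223.5 bp in replicates 1 to 4, over 35, 28, 25 and 26 genes, a mean of −127 ± 65.1 bp (SD, n = 4). Replicate 4 stood apart with summits farther upstream. In this organism an annotated start of a small RNA can be its processed 5′ end, so these are distances to the annotation.

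**Figure D3:**
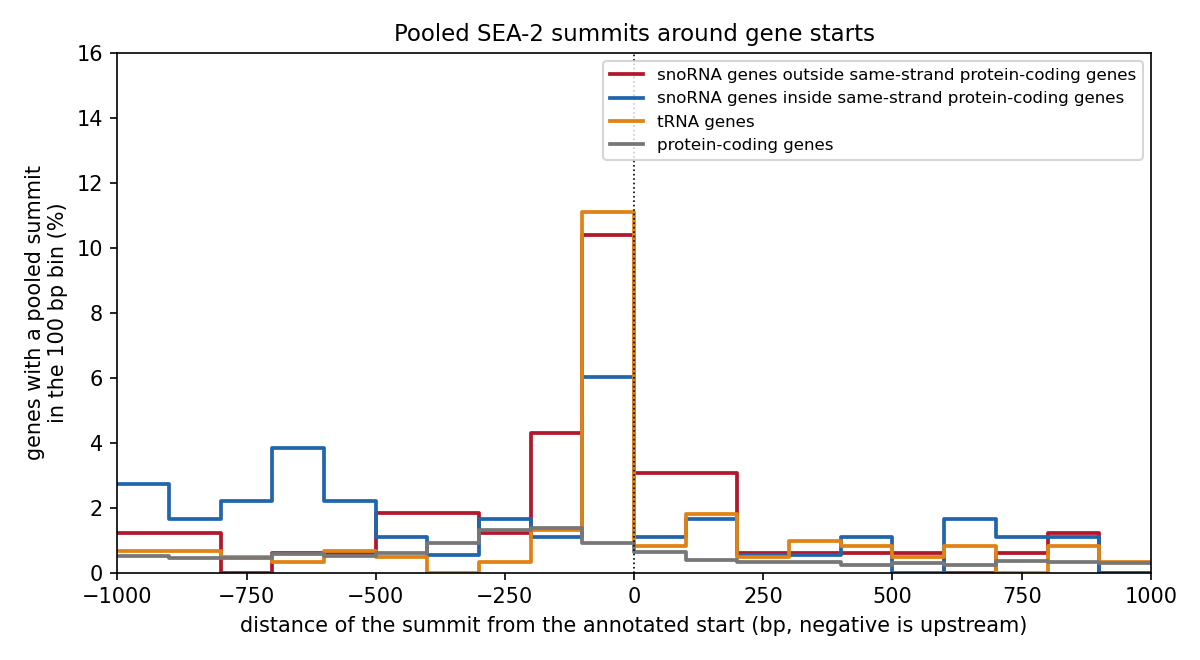
Percent of genes with a pooled summit in each 100 bp bin from 1000 bp upstream to 1000 bp downstream of the annotated start, for 4 gene classes. In the bin just upstream of the start the snoRNA genes outside protein-coding genes reached 10.4%, the tRNA genes 11.1%, the inside snoRNA genes 6.01% and the protein-coding genes 0.896%.

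In the 100 bp just upstream of the start, 17 of the 163 genes (10.4%) had a pooled summit. The share there was 11 of 183 in the inside snoRNA genes (6.01%), 68 of 612 in the tRNA genes (11.1%) and 179 of 19973 in the protein-coding genes (0.896%). The protein-coding genes reached 1.37% in the next bin upstream. The inside snoRNA genes had a second high bin of 3.83% between 700 and 600 bp upstream, where the genes outside stood at 0.613%.

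**Figure D4:**
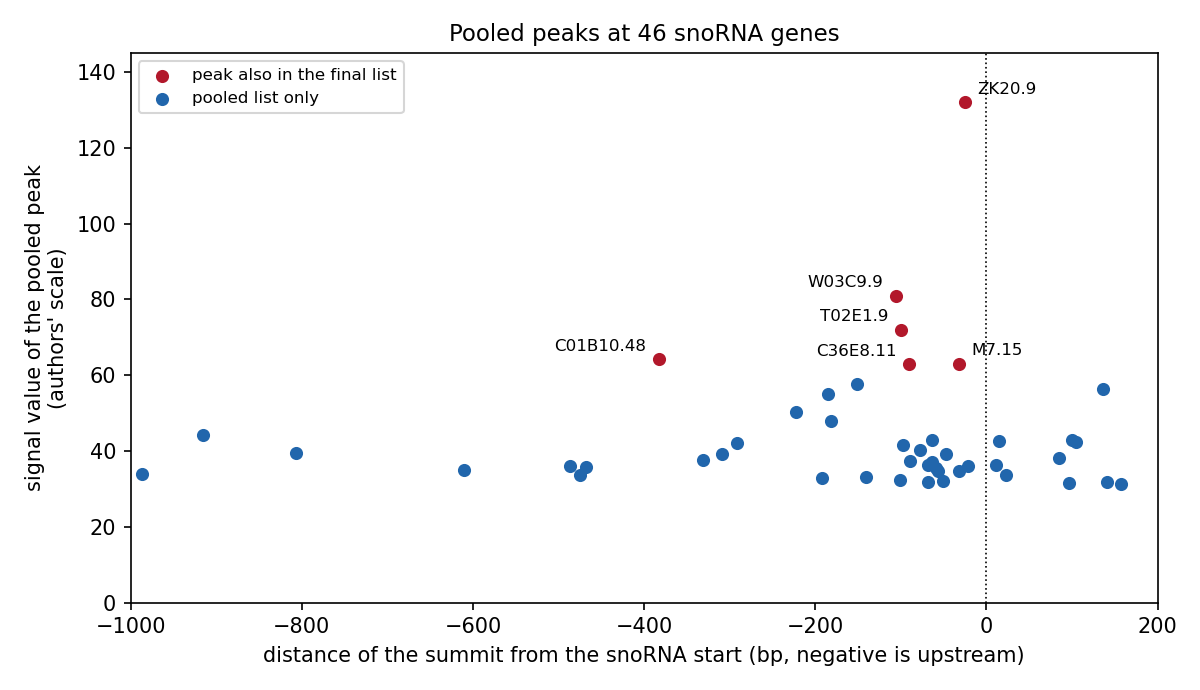
Signal value of the nearest pooled peak (y axis, the authors' scale) against the distance of its summit from the snoRNA start (x axis, bp) for the 46 genes, with peaks of the final list in red. Of the 6 red points, 5 lie between 106 and 25 bp upstream and C01B10.48 lies 383 bp upstream.

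Neighbouring genes shared many of these summits. For 35 of the 46 genes the snoRNA start was the nearest annotated start to the summit, for 8 it was that of another RNA gene and for 3 that of a protein-coding gene (hil-7 for C01B10.48, din-1 for F07A11.15 and rack-1 for K04D7.17). In 22 cases the summit also fell in the window of a protein-coding gene, and in 15 it fell in the window of no other gene. The median distance from the summit to the nearest protein-coding start was 912 bp. Of the 68 genes with a protein-coding start within 1000 bp, 24 (35.3%) had a pooled summit, and of the 95 without one, 22 (23.2%) did, so pooled summits were present in both sets. The final list had 4 of the 68 and 2 of the 95, the 2 being ZK20.9 and W03C9.9. Among the 124 genes that share no base with a protein-coding gene 39 (31.5%) had a pooled summit, and among the 39 that do, 7 (17.9%). When each pooled summit was given only to the nearest start, 35 of the 163 genes (21.5%) kept one, against 6.49% of all genes.

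The genes with a pooled summit were spread over all chromosomes. On chromosome II 15 of 36 genes (41.7%) had one, on I 10 of 38 (26.3%), on III 4 of 16 (25%), on IV 7 of 31 (22.6%), on V 5 of 19 (26.3%) and on X 5 of 23 (21.7%). Over all genes the shares were 10.3% on II, 13.1% on I, 12.4% on III, 7.75% on IV, 5.94% on V and 12% on X. On each chromosome the snoRNA genes had the higher share, and the counts on III, V and X were of 5 genes or fewer.

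Pooled summits were found at genes with and without recognisable boxes or words. Of the genes with C and D boxes 3 of 8 (37.5%) had a pooled summit, namely W03C9.9, F30H5.4 and C18A3.12, of those with an ACA 7 of 20 (35.0%), and of those with neither 36 of 135 (26.7%). The share over all genes was 9.86%. With GGTTCNANNC in the promoter 4 of 13 genes (30.8%) had a pooled summit, W03C9.9, T02E1.9, Y75B12B.12 and F12F6.11, and W03C9.9 and T02E1.9 a final one. Over all 316 genes with this word, 43 (13.6%) had a pooled summit and 4 a final one. With GCGGAACC 3 of 15 (20%) had a pooled summit, Y53F4B.47, F59C6.15 and F25H2.15, and 0 a final one. Over all 102 genes with GCGGAACC, 13 (12.7%) had a pooled summit and 1 a final one. Of the 135 snoRNA genes with neither word 39 (28.9%) had a pooled summit. The groups with a box or a word were small, and their differences were not tested.

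GAGAGA, searched on both strands of the 300-base promoters, stood in 15 of the 46 promoters with a pooled summit (32.6%), in 30 of the 117 without one (25.6%) and in 22.8% of all promoters. It stood in 27.8% of tRNA promoters, 22.4% of inside snoRNA promoters and 14.7% of snRNA promoters. TATAA on either strand stood in 19 of the 46 (41.3%), in 58 of the 117 (49.6%) and in 53.9% of all promoters. The promoters with a pooled summit had 42.4% ± 6.87 G or C (SD over genes, n = 46), those without one 40.5% ± 6.31 (n = 117) and all promoters 36.0% ± 5.85. Other small RNA classes were similar to the snoRNA genes outside, with 40.2% for inside snoRNA, 41.1% for snRNA and 41.3% for tRNA promoters. Within 50 bp of the pooled summit G or C made up 45.4% ± 10.6 of the bases, against 37.5% in windows of the same length centred 250 bp to each side. The summit was the richer place in 34 of the 46 genes (73.9%), by 7.94 points on average. Over all pooled summits the difference was 4.72 points, and 65.2% were richer at the summit. These are descriptions of sequence, and the part of base composition in the peak calls was not tested.

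Some of these RNAs have near copies in the genome, and whether reads map equally well to a copy was not tested. A second copy of the RNA, of at least 50 bp at 90% identity, was found for 30 of the 163 genes, and 5 of the 30 had a pooled summit (Y53F4B.47, F59C6.15, T27A8.8, C46C2.8 and F25H2.15). Of the 46 pooled peaks 3 had such a copy, those of Y53F4B.47, F59C6.15 and F25H2.15. None of the 6 final genes had a copy of its peak or of its RNA. How the authors placed reads with several matches is not given in the sources used here.

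The genes for proteins that act with snoRNAs, or that transcribe small RNA genes, had pooled summits at about the share of all genes, with 2 of 20 against 9.86%. Of 4 genes for box C/D proteins 1, nol-56, had a pooled summit, 264 bp upstream of its start with a signal value of 40.1 and rank 1079. Of 4 genes for box H/ACA proteins 1, dkc-1, the gene of dyskerin, had one, 210 bp upstream with a signal value of 54.4 and rank 384. The fibrillarin gene fib-1, the 3 genes for assembly factors and the 9 genes for transcription factors of small RNA genes, among them snpc-4 and tbp-1, had none. No gene of these lists had a final summit. In the final list 1.3% of all genes had one, so a count of 0 of 20 says little.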

How the data were processed

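ChIP-seq peak lists of SEA-2 from 4 replicates were used as deposited. Per the deposited file records, the authors called each replicate against 1 shared control, a pooled list from all 4 alignments, and a final list from the pooled one by its irreproducible discovery rate. Not given in the sources used here are the aligner, the peak caller, the threshold and the read numbers. The authors' signal value per peak, of unstated scale, served only to rank peaks within a list, and the deposited −log10 of a q-value only as a filter. Positions are 1-based on ce11, which is WBcel235, with Ensembl release 115 genes, and lists on ce10 were not used. Promoter windows covered every annotated transcript start of a gene. The counting and the permutation test were tested on simulated data. Genes, lists and words were chosen with earlier results of these data known, and GCGGAACC and GGTTCNANNC after promoters had been read. Named are all genes with a final summit, the 12 strongest with a pooled summit only, those among the strongest peaks of at least 2 replicates, genes sharing a final summit, and listed snoRNA protein and transcription genes with a pooled summit. A few further genes were named after their values were seen, where a count was small. Of 21 listed symbols 20 were tested. Replicates are labelled as biological. Python 3.11.15, numpy 2.4.6, pandas 2.3.3, scipy 1.17.1 and blastn 2.17.0 were used.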

Additional observations from a re-analysis of the deposited data

Results flagged for a closer look

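Over 29 sets of 4 replicate values, 8 held a sample far from the other three. The criterion marks about 1 set in 20 by chance when values are normally distributed. Ranks are skewed and counts of genes are tied, so its rate in these sets is not known. The percent of snoRNA genes outside protein-coding genes with a summit of the strongest peaks was 3.68 in replicate 1 against 3.07 in the 3 others, which is a difference of 1 gene. The median distance of the summits from the start was −223.5 bp in replicate 4, against −105 to −85 bp in the others. Most of the remaining cases are peaks that ranked far lower in replicate 4 than elsewhere. These are the peaks of ZK20.9 (rank 1872), C01B10.48 (rank 6044), C36E8.11 (rank 9353), W06H8.17 (rank 14097) and F54E4.17 (rank 29248). The ZK265.10 peak was instead low in replicate 2, at rank 8455.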

How the results depend on the processing

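With the stronger 50% of the final peaks 1.23% of the snoRNA genes outside protein-coding genes had a summit, against 0.728% of all genes. In the pooled list the share was 21.5% with each summit given to the nearest start (6.49% of all genes) and 1.84% with −log10 q-values of at least 2 (0.959%). The replicate mean of 3.22% became 2.61% with the window of 500 bp upstream to 100 bp downstream, 4.03% over genes that share no base with a protein-coding gene and 2.45% with the nearest start only. It was 8.90%, 17.5% and 50.5% with 1000, 3912 and all peaks of each replicate, where all other genes rose too. The differences from all other genes were then 6.01, 9.23 and 11.3 points. Leaving out each replicate gave a replicate mean of 3.07 to 3.27%. The difference from all other genes stayed positive in every alternative run, from 1.74 to 11.3 points, and the exact permutation test over 4 replicates cannot go below p = 0.125. The difference from inside snoRNA genes, −1.01 points, changed sign with the narrower window (1.24), the nearest start (1.09), 1000 peaks (0.289), all peaks (0.324) and replicates 3 and 4 only (0.882), where the cause was not tested. Leaving out each replicate gave −2.01 to −0.211 points. The unknown depth limits how far absent summits can be read.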
